A study of Mus musculus with 24 samples.

Results

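The comparison described here is the effect of housing on hippocampal RNA averaged over both genotypes of the study: 6 mice housed in an enriched environment (EE) against 6 mice housed in standard cages (SC), with genotype as a covariate. All 12 libraries of the series entered it, 3 in each of 4 groups, and its members are the 18251 of 55471 annotated genes that passed an expression filter. The groups were SC control littermates, EE control littermates, SC CBP-ifKOs and EE CBP-ifKOs, all female C57BL/6 mice of 3 to 6 months. CBP-ifKOs carry floxed Crebbp alleles and the CaMKIIα-creERT2 transgene, which recombines in forebrain excitatory neurons only after tamoxifen, so the other cells of their hippocampus keep the gene. Control littermates lacked the transgene, and all mice of both genotypes had received 5 intragastric doses of tamoxifen (20 mg/mL in corn oil). The replicates were hippocampi of individual mice, each sequenced in 2 runs whose counts form 1 column and 1 replicate, and EE lasted about a month.

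An enriched cage gives mice more space, company, objects to explore and exercise than a standard cage. It is known in the hippocampus for better spatial learning, more adult-born granule neurons and more synapses. Neuronal activity acts on transcription in waves: immediate early genes such as Fos and Arc respond within minutes, and late response genes, many of which encode secreted or synaptic proteins, follow over hours. CBP, encoded by Crebbp, is a lysine acetyltransferase that CREB and other activity-dependent factors recruit. The study asked whether the adaptation to EE needs CBP, and the averaged comparison asks what EE changed in the presence and in the absence of neuronal CBP.

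The libraries held between 26874015 and 27971488 counts in the controls and between 28582210 and 37448388 in the CBP-ifKOs, where every count was even. This difference followed genotype and not housing, since each genotype held 3 SC and 3 EE mice. In CPM, which are counts scaled to the size of each library, Crebbp, the targeted gene, was at 73.9, 81.9 and 70.7 CPM in the SC controls, 72.3, 77.1 and 69.6 CPM in the EE controls, 50.6, 51.6 and 50.00 CPM in the SC CBP-ifKOs and 44.5, 48.3 and 46.7 CPM in the EE CBP-ifKOs, and its averaged housing change was -0.09 ± 0.04, adjusted p = 0.54. A pair of control libraries stood apart. EE replicate 1 held 2150 CPM of the choroid plexus markers in sum, against 207.5 to 273.2 CPM in the other 11 mice, and SC replicate 2 sat with the EE mice in 3 genes of chromosome 4. The choroid plexus and chromosome 4 values that rest on these mice are given with and without them. In whole tissue, fewer cells of a type and less RNA per cell cannot be told apart.

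Housing changed few genes, and it changed them in the same direction in both genotypes. In edgeR's quasi-likelihood test with Benjamini-Hochberg adjustment, 32 of 18251 genes (0.175%) had an adjusted p below 0.05, 12 of them (0.0657%) higher in EE and 20 (0.11%) lower. The changes were small: the median absolute log2 fold change of the 32 genes was 0.36, 8 genes changed by less than 0.25 and 6 by at least 0.5. All 32 had the same sign in controls and CBP-ifKOs. In 29 of the 32 the 3 EE mice did not overlap the 3 SC mice in either genotype, a pattern found in 1.5% of all genes tested. The groups did not overlap in the controls for 29 genes (9.11% of all genes) and in the CBP-ifKOs for 32 (15.9% of all), and over the 12 mice the 6 EE mice lay clear of the 6 SC mice in 13 (0.4% of all). The test and these patterns used the same values. At an unadjusted p below 0.05 there were 1819 genes (9.97%), 856 of them (4.69%) higher and 963 (5.28%) lower in EE, so the 32 are the part that survived the adjustment. The median log2 fold change of all genes was -0.0005.

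The number of genes past the threshold depended on the tool and on single mice. DESeq2 called 168 genes, 31 of the 32 among them, and gave no adjusted p for the remaining one, Ndufs5. The call count was 51 in limma voom, with all 32 among them. It was 11 without CBP-ifKO EE replicate 3, 13 without CBP-ifKO SC replicate 1, 16 without CBP-ifKO SC replicate 2 and 16 without control EE replicate 3. It was 21 without control EE replicate 1, with 20 of the 32 among them, 23 without control SC replicate 2, with 18 of the 32 among them, and 55 without control EE replicate 2. Wipf3, Nptx2, Sox9, BC002163, Ndufs5, Lingo3, Dcdc2b, Aldh1a1, Gm10561 and Ftx, 10 genes in all, stayed past the threshold in each of the 12 fits that left out 1 mouse, and the other 22 lost the call in at least 1 of these fits. Npy lost it without CBP-ifKO EE replicate 3 or SC replicate 1, Igfbp5 without CBP-ifKO EE replicate 3, and Penk, Nos1, Nfia and Mdga1 kept it in 5 of the 12. Car7, Vps29 and Adcyap1r1 kept it in 4 of the 12, Shisa9 and Lypd1 in 3, and Ppt1 and Lncppara in 2.

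**Figure D1:**
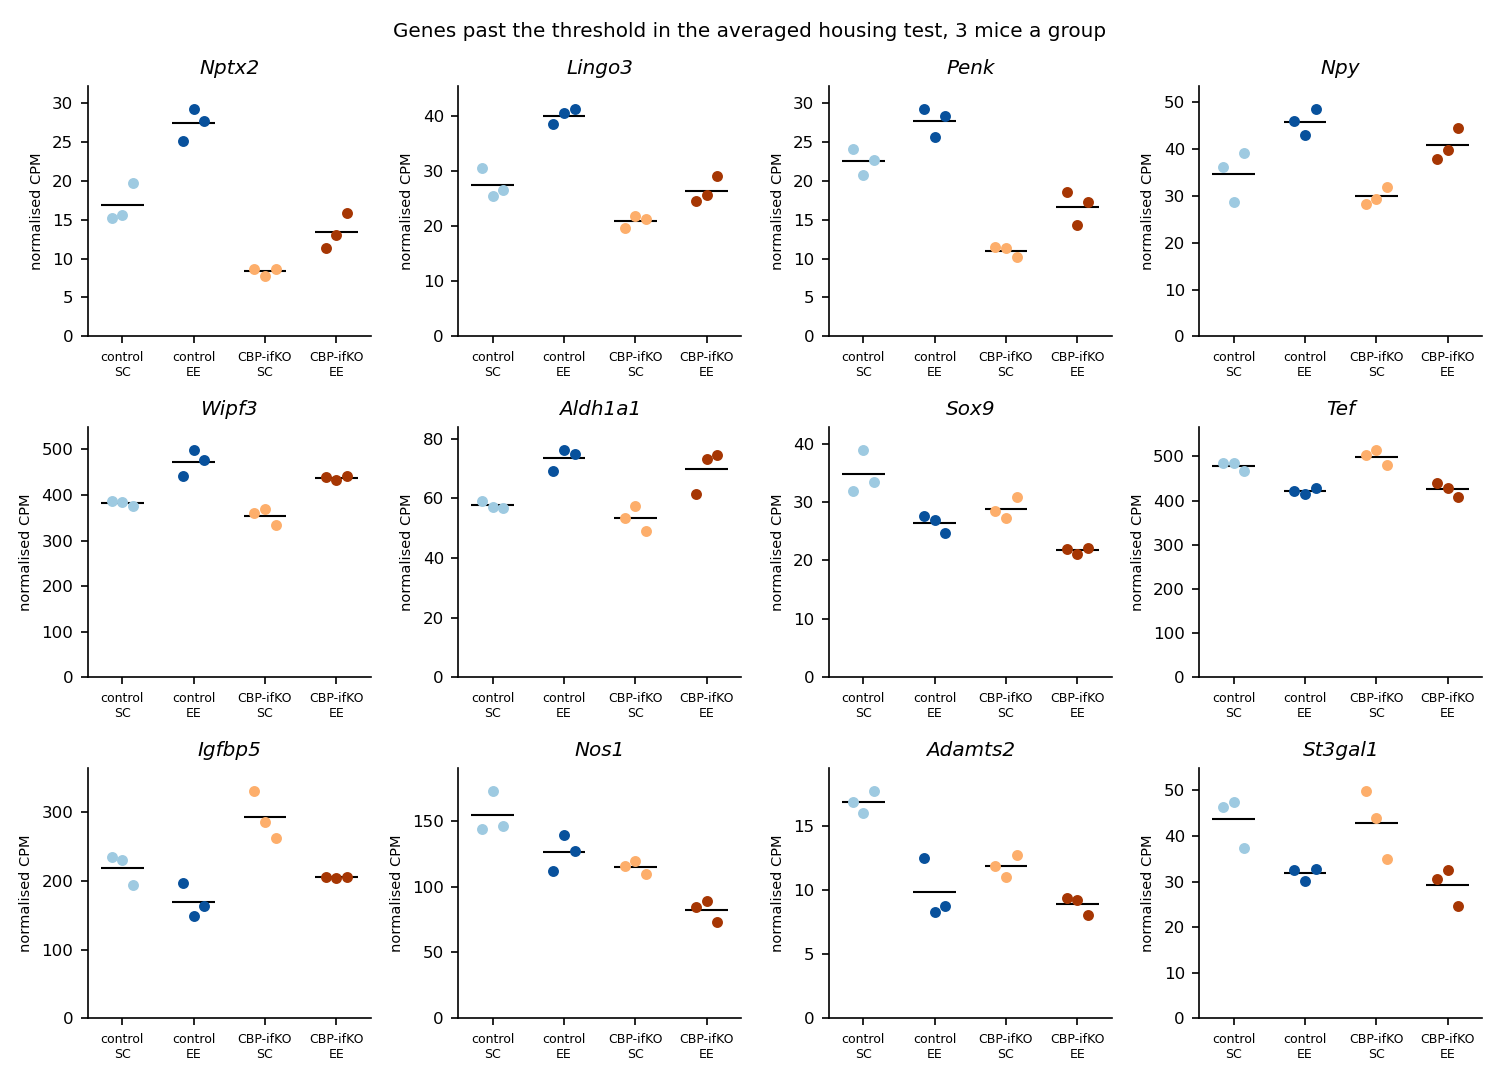
Normalised expression in CPM of 12 genes past the threshold, 1 panel a gene, with 1 point per mouse, 3 mice in each of the 4 groups and a line at the group mean. The first 6 panels show genes that were higher in EE and the other 6 genes that were lower, and in 11 of the 12 the EE points lie clear of the SC points within each genotype, Igfbp5 in the controls being the exception.

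Nptx2 and Lingo3 were among the 12 genes that rose. Nptx2 (ENSMUSG00000059991, chr5:144545902-144557478, plus strand), a secreted pentraxin that clusters AMPA receptors at excitatory synapses onto interneurons, was at 15.3, 15.6 and 19.8 CPM in the SC controls, 25.2, 29.3 and 27.7 CPM in the EE controls, 8.67, 7.82 and 8.63 CPM in the SC CBP-ifKOs and 11.3, 13.03 and 15.9 CPM in the EE CBP-ifKOs. Each EE group lay above its SC group, and 1 EE CBP-ifKO, replicate 3, reached the range of the SC controls. The averaged log2 fold change was 0.69 ± 0.08 (SE, adjusted p = 0.00366), with 0.70 ± 0.12 in the control littermates and 0.68 ± 0.13 in the CBP-ifKOs. Lingo3 (chr10:80832801-80844039, minus strand), a leucine-rich repeat membrane protein, was at 30.6, 25.5 and 26.6 CPM in the SC controls, 38.5, 40.5 and 41.4 CPM in the EE controls, 19.7, 21.9 and 21.4 CPM in the SC CBP-ifKOs and 24.5, 25.7 and 29.1 CPM in the EE CBP-ifKOs. The groups again did not overlap within a genotype, and the change was 0.44 ± 0.06 (SE, adjusted p = 0.00506).

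The precursors of 2 neuropeptides rose. Npy, the precursor of neuropeptide Y, which hippocampal interneurons release to damp excitation, was at 36.1, 28.7 and 39.2 CPM in the SC controls, 46.1, 42.97 and 48.6 CPM in the EE controls, 28.3, 29.4 and 31.9 CPM in the SC CBP-ifKOs and 37.9, 39.8 and 44.6 CPM in the EE CBP-ifKOs. All EE mice lay above the SC mice of their genotype, and the averaged change was 0.43 ± 0.07 (SE, adjusted p = 0.0136). Penk, the precursor of the enkephalins, was at 24.02, 20.8 and 22.6 CPM in the SC controls, 29.2, 25.6 and 28.3 CPM in the EE controls, 11.4, 11.3 and 10.2 CPM in the SC CBP-ifKOs and 18.6, 14.2 and 17.2 CPM in the EE CBP-ifKOs. Its change was 0.45 ± 0.08 (SE, adjusted p = 0.0213), with 0.30 ± 0.10 in the control littermates and 0.60 ± 0.10 in the CBP-ifKOs, and it had the smallest interaction p of the 32 genes (0.0474, unadjusted). No EE CBP-ifKO reached the Penk level of an SC control. An exon of A830012C17Rik runs antisense through Penk, and the strandedness of the counting is not given in the sources used here, so reads of the pair cannot be told apart.

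Wipf3, an actin regulator of the verprolin family that binds WASP proteins, had the smallest p of all genes. It was at 386, 384 and 376 CPM in the SC controls, 442, 499 and 477 CPM in the EE controls, 359, 369 and 335 CPM in the SC CBP-ifKOs and 439, 433 and 441 CPM in the EE CBP-ifKOs. The lowest EE value lay above the highest SC value over all 12 mice, and the change was 0.31 ± 0.04 (SE, adjusted p = 0.00344), with 0.31 ± 0.05 in the control littermates and 0.30 ± 0.05 in the CBP-ifKOs. Wipf3 also overlaps exons of 9130019P16Rik and Scrn1 on the opposite strand.

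The increased genes also included 4 enzymes, a subunit of a trafficking complex and a noncoding RNA. Aldh1a1, which makes retinoic acid from retinaldehyde, was at 58.98, 57.2 and 56.7 CPM in the SC controls, 69.2, 76.3 and 74.98 CPM in the EE controls, 53.4, 57.6 and 49.1 CPM in the SC CBP-ifKOs and 61.5, 73.1 and 74.4 CPM in the EE CBP-ifKOs. The 6 EE mice all lay above the 6 SC mice, and the change was 0.37 ± 0.05 (SE, adjusted p = 0.00506). Car7, a cytosolic carbonic anhydrase of neurons, lay between 11.7 and 22.3 CPM in SC (median 15.8) and between 14.5 and 28.1 CPM in EE (median 21.1), with a change of 0.37 ± 0.07 (SE, adjusted p = 0.0303). Man1a, a Golgi mannosidase that trims N-glycans, lay between 71.7 and 103 CPM in SC (median 88.3) and between 92.2 and 132 CPM in EE (median 103), with a change of 0.28 ± 0.05 (SE, adjusted p = 0.0213). Vps29, a retromer subunit, changed by 0.19 ± 0.03 (SE, adjusted p = 0.0246). Ppt1, a lysosomal enzyme that removes palmitate from proteins, changed by 0.19 ± 0.04 (SE, adjusted p = 0.0414). The housing ranges of Car7, Man1a and Vps29 overlapped over the 12 mice but not within a genotype. Lncppara, the host transcript of let-7 microRNAs, changed by 0.47 ± 0.09 (SE, adjusted p = 0.0355) and shares exons with Mirlet7b and Mirlet7c-2. Man1a, Vps29 and Ppt1 each overlap an exon of a gene on the opposite strand, Gm16998, Fam216a and Cap1.

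Among the 20 decreased genes were the transcription regulators Sox9, Wwtr1, Nfia and Tef. Sox9, which marks astrocytes and neural progenitors and is needed for gliogenesis, was at 31.9, 38.95 and 33.4 CPM in the SC controls, 27.6, 26.9 and 24.7 CPM in the EE controls, 28.5, 27.2 and 30.9 CPM in the SC CBP-ifKOs and 21.96, 21.1 and 22.2 CPM in the EE CBP-ifKOs. Every EE mouse lay below the SC mice of its genotype, and the change was -0.40 ± 0.05 (SE, adjusted p = 0.00506), with -0.40 ± 0.08 in the control littermates and -0.41 ± 0.08 in the CBP-ifKOs. Wwtr1, the TAZ coactivator of the Hippo pathway, lay between 21.7 and 23.8 CPM in SC (median 22.4) and between 16.9 and 19.8 CPM in EE (median 18.02). The 6 EE mice all lay below the 6 SC mice, and the change was -0.30 ± 0.05 (SE, adjusted p = 0.0213). Nfia, which acts with Sox9 at the onset of gliogenesis, lay between 67.5 and 87.8 CPM in SC (median 77.9) and between 60.7 and 74.8 CPM in EE (median 66.3) and changed by -0.22 ± 0.04 (SE, adjusted p = 0.0253). Nfia, Adcyap1r1, Shisa9, Mdga1 and Lypd1 passed the threshold outside the rule that chose the named genes, and they are named after their values were seen.

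Tef, a PAR bZIP factor whose RNA cycles under the circadian clock, was at 484, 486 and 466 CPM in the SC controls, 422, 416 and 428 CPM in the EE controls, 502, 515 and 479.9 CPM in the SC CBP-ifKOs and 440.0, 429 and 408 CPM in the EE CBP-ifKOs. The 6 EE mice all lay below the 6 SC mice, and the change was -0.21 ± 0.03 (SE, adjusted p = 0.0135).

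Several decreased genes encode signalling proteins of neurons. Nos1, the neuronal nitric oxide synthase, was at 144, 173 and 146 CPM in the SC controls, 112, 139 and 127 CPM in the EE controls, 116, 119 and 109 CPM in the SC CBP-ifKOs and 84.5, 88.7 and 73.02 CPM in the EE CBP-ifKOs. The EE mice lay below the SC mice within each genotype, while the EE controls overlapped the SC CBP-ifKOs. Nos1 overlaps the antisense exon of Gm26995, and the change was -0.39 ± 0.07 (SE, adjusted p = 0.0213). Adcyap1r1, the receptor of the peptide PACAP, lay between 260.1 and 294 CPM in SC (median 274) and between 211 and 255 CPM in EE (median 236), without overlap, and changed by -0.24 ± 0.04 (SE, adjusted p = 0.0284). Shisa9, an auxiliary subunit of AMPA receptors, changed by -0.21 ± 0.04 (SE, adjusted p = 0.0318). Doc2b, a calcium sensor of transmitter release, changed by -0.24 ± 0.04 (SE, adjusted p = 0.0213), and Rab8b, a small GTPase of vesicle transport, by -0.22 ± 0.04 (SE, adjusted p = 0.0202). Hrk, a BH3-only protein that promotes apoptosis, lay between 57.05 and 69.3 CPM in SC (median 62.8) and between 45.8 and 57.2 CPM in EE (median 51.2), with the highest EE value just above the lowest SC value, and changed by -0.31 ± 0.05 (SE, adjusted p = 0.0202). Lypd1, which binds nicotinic receptors, changed by -0.32 ± 0.06 (SE, adjusted p = 0.0376) and overlaps Gpr39 on the opposite strand.

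Decreased genes of the extracellular space and the cell surface included Igfbp5, a secreted binding protein of insulin-like growth factors, at 234, 230.0 and 193 CPM in the SC controls, 197, 149 and 163 CPM in the EE controls, 331, 285 and 262 CPM in the SC CBP-ifKOs and 206, 204 and 205 CPM in the EE CBP-ifKOs. The EE controls overlapped the SC controls, since EE replicate 1 lay above SC replicate 3, and the CBP-ifKO groups did not overlap. The averaged change was -0.44 ± 0.07 (SE, adjusted p = 0.0141). Adamts2, a protease that processes procollagen, was at 16.8, 15.9 and 17.7 CPM in the SC controls, 12.5, 8.26 and 8.74 CPM in the EE controls, 11.8, 11.01 and 12.7 CPM in the SC CBP-ifKOs and 9.35, 9.23 and 8.05 CPM in the EE CBP-ifKOs, without overlap within a genotype, and changed by -0.59 ± 0.10 (SE, adjusted p = 0.0213). St3gal1, a sialyltransferase, lay between 35.01 and 49.9 CPM in SC (median 45.1) and between 24.7 and 32.8 CPM in EE (median 31.6), with no EE mouse above an SC mouse, and changed by -0.50 ± 0.09 (SE, adjusted p = 0.0213). Mdga1, which binds neuroligins, changed by -0.30 ± 0.06 (SE, adjusted p = 0.0355), and its EE and SC controls overlapped. The noncoding transcripts were Ftx, a long noncoding RNA of the X-inactivation centre, and Gm10561, annotated antisense to Rftn2. Ftx lay between 109 and 127 CPM in SC (median 118) and between 88.9 and 108 CPM in EE (median 98.7) and changed by -0.27 ± 0.04 (SE, adjusted p = 0.00825). Gm10561 lay between 11.8 and 13.9 CPM in SC (median 12.8) and between 8.37 and 10.8 CPM in EE (median 9.27) and changed by -0.44 ± 0.06 (SE, adjusted p = 0.00737). In both the 6 EE mice lay below the 6 SC mice. Among the decreased genes, Tef, Nfia, Doc2b, Ftx and Gm10561 also have exons of other genes on the opposite strand (Gm17597, E130114P18Rik, Gm12339, 4 genes for Ftx, and Rftn2), so their counts are uncertain in the same way as that of Penk.

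Among the genes past the threshold, the 2 largest decreases were those of Ndufs5, an accessory subunit of respiratory complex I, and Dcdc2b, a doublecortin-domain protein, which lie on chromosome 4. The largest increase among them was that of BC002163, annotated as a processed pseudogene on chromosome 16 and a copy of the Ndufs5 transcript. The beginning of the coding sequence of Ndufs5 (transcript Ndufs5-201, gene at chr4:123712710-123718202, minus strand of GRCm38) and the matching stretch of BC002163 (chr16:42955631-42955949, plus strand) are shown because reads of 50 bases can match both, with the bases that differ in capitals.
Ndufs5: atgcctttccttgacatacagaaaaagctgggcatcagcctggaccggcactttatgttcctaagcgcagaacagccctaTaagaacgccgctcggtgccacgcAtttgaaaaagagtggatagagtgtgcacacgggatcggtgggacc
BC002163: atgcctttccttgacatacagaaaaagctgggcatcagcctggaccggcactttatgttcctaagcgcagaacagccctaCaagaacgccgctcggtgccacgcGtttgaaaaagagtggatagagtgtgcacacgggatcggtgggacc

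Over 319 aligned bases the copy differed from the coding sequence at 2 positions, T81C and A105G, counted from 1 at the A of the start codon with the base of Ndufs5 given before the position. Of the 270 stretches of 50 bases in BC002163, 196 also occur unchanged in Ndufs5. Reads from those stretches have no unique place in the reference, and the authors kept reads with a mapping quality above 10. The counts of the pair are therefore uncertain and may rest on reads from the remaining stretches alone, which was not tested.

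Ndufs5 was at 4.08, 0.793 and 3.88 CPM in the SC controls, 0.698, 0.849 and 0.768 CPM in the EE controls, 4.07, 5.95 and 4.29 CPM in the SC CBP-ifKOs and 1.14, 0.641 and 1.06 CPM in the EE CBP-ifKOs. The mice sat at a high and a low level: 5 SC mice between 3.88 and 5.95 CPM, and all 6 EE mice together with SC control replicate 2 between 0.641 and 1.14 CPM. BC002163 was at 6.31, 10.2 and 5.48 CPM in the SC controls, 11.1, 11.6 and 15.8 CPM in the EE controls, 4.96, 4.57 and 5.93 CPM in the SC CBP-ifKOs and 14.9, 12.8 and 12.4 CPM in the EE CBP-ifKOs, and the same SC control lay nearer to the EE mice than the other SC mice did. The averaged changes were -2.15 ± 0.30 (SE, adjusted p = 0.00506) for Ndufs5 and 1.09 ± 0.15 (SE, adjusted p = 0.00506) for BC002163, and without SC control replicate 2 they were -2.34 ± 0.16 (adjusted p = 5.33e-06) and 1.27 ± 0.11 (adjusted p = 4.13e-05). The sum of both genes was between 9.03 and 10.96 CPM in SC and between 11.8 and 16.6 CPM in EE.

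Dcdc2b (chr4:129608331-129614257, minus strand) was at 6.05, 1.85 and 5.12 CPM in the SC controls, 1.84, 1.51 and 1.32 CPM in the EE controls, 6.46, 5.19 and 5.99 CPM in the SC CBP-ifKOs and 2.43, 1.44 and 1.59 CPM in the EE CBP-ifKOs, with the same SC control at the low level. Its change was -1.59 ± 0.22 (SE, adjusted p = 0.00506), and -1.75 ± 0.15 without that mouse (adjusted p = 2.63e-05). Hdac1, a class I histone deacetylase gene near Dcdc2b, was looked at after the values were seen. It was at 8.98, 5.18 and 8.57 CPM in the SC controls, 5.25, 5.75 and 5.41 CPM in the EE controls, 10.3, 8.86 and 10.6 CPM in the SC CBP-ifKOs and 6.61, 7.26 and 5.88 CPM in the EE CBP-ifKOs, and its change of -0.53 ± 0.12 (SE, adjusted p = 0.0866) passed the threshold only without SC control replicate 2 among the fits that left out 1 mouse (-0.63 ± 0.08, adjusted p = 0.00515). Zmym1, a zinc-finger gene of the same stretch, changed by -0.35 ± 0.06 (SE, adjusted p = 0.0213), and Ppt1, described above, lies in it as well. In neither gene did SC control replicate 2 lie among the EE mice. The adjusted p was 0.056 for Zmym1 and 0.0128 for Ppt1 without that mouse, and 0.0659 and 0.107 without control EE replicate 1.

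Chromosome 4 held 1055 of the genes tested (5.78%) and 6 of the 32 past the threshold, which is 0.569% of the genes tested there against 0.151% on the other chromosomes. Between Ppt1 and Dcdc2b, over 6.78 megabases (chr4:122836242-129614257), 25 of 108 genes (23.1%) had an unadjusted p below 0.05, against 9.97% of all genes, a stretch that was bounded by the genes past the threshold themselves. Dcdc2b overlaps Tmem234 and Zmym1 overlaps Gm12940 on the opposite strand. What separated the mice in this stretch was not tested.

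**Figure D2:**
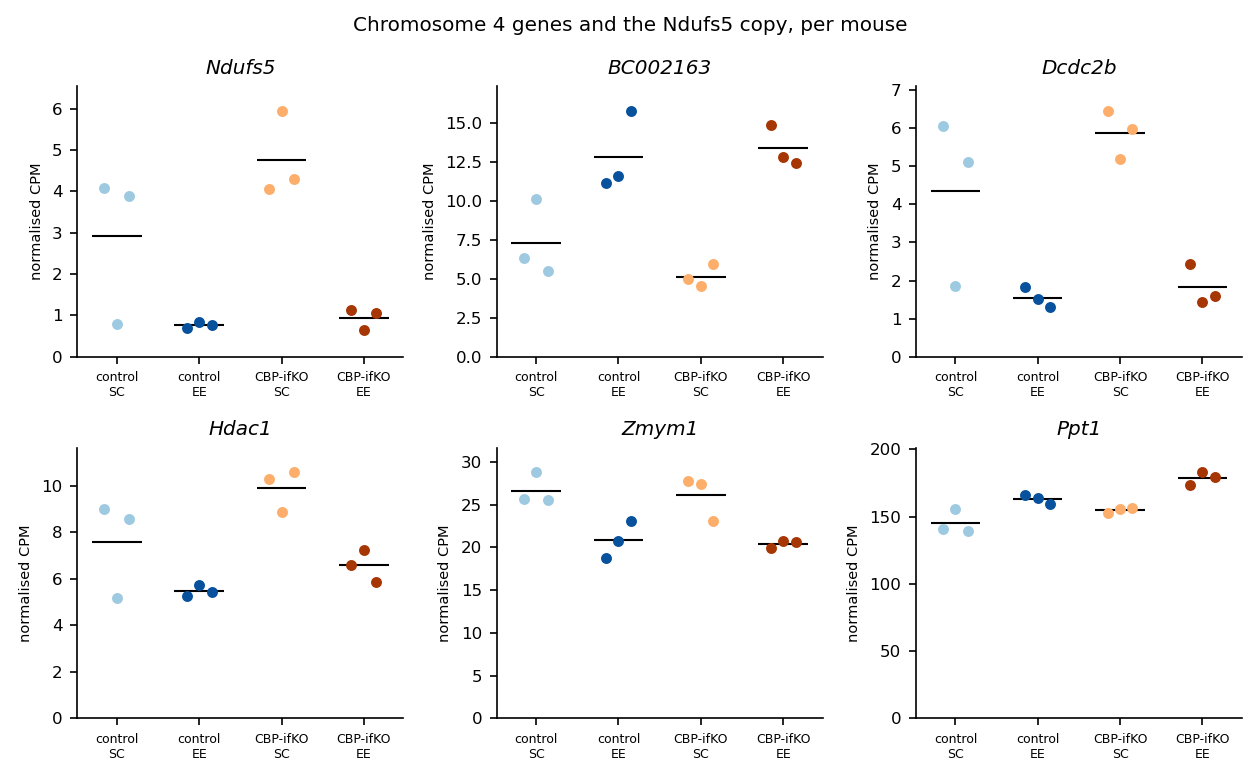
Normalised CPM of Ndufs5, its copy BC002163, Dcdc2b, Hdac1, Zmym1 and Ppt1 by mouse, with 3 mice in each of the 4 groups and a line at the group mean. In Ndufs5, Dcdc2b and Hdac1 a single SC control lies with the EE mice, while in Zmym1 and Ppt1 the SC and EE mice of each genotype are apart.

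Whether housing acted differently in the CBP-ifKOs was asked with the interaction of genotype and housing. In edgeR 0 genes (0%) had an adjusted p below 0.05 and 574 (3.15%) an unadjusted p below 0.05, and DESeq2 and limma voom also called 0 genes, with 446 and 893 at an unadjusted p below 0.05. Of the 32 housing genes, 21 changed more in the CBP-ifKOs and 11 more in the controls, and 1, Penk, had an unadjusted interaction p below 0.05. The split was not counted over all genes, so it is not read as a trait of the 32. A missing interaction call does not show that the changes were equal. The genes with the smallest interaction p were Slco1a4, an organic anion transporter of brain endothelium, Myl9, a myosin light chain of smooth muscle, and Zp2, an egg-coat protein. The Slco1a4 change was -0.02 ± 0.07 in the control littermates and 0.42 ± 0.07 in the CBP-ifKOs, and the smallest adjusted p of any interaction was 0.9998 in edgeR's quasi-likelihood test.

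**Figure D3:**
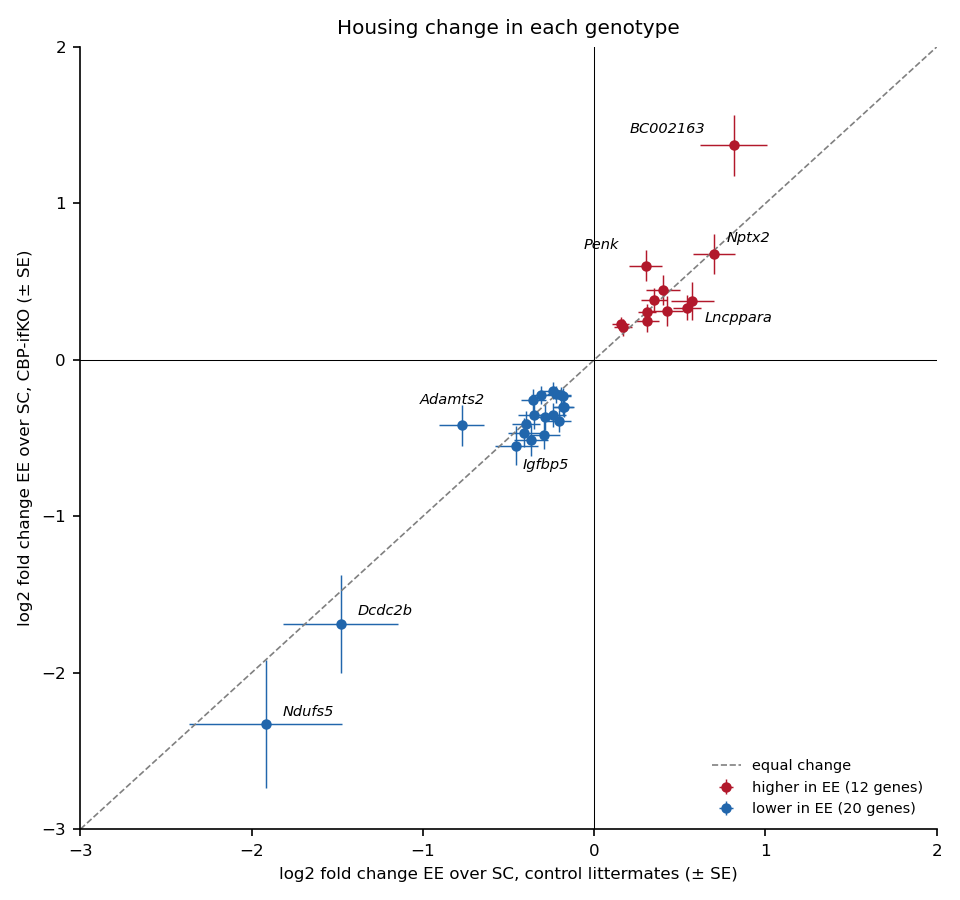
Log2 fold change of EE over SC in the control littermates (x axis) and in the CBP-ifKOs (y axis) for the 32 genes past the threshold of the averaged test, with standard errors. All 12 increased genes lie above 0 on both axes and all 20 decreased genes below 0 on both, spread along the dashed line of equal change, with BC002163 and Penk above it and Adamts2 nearer to 0 in the CBP-ifKOs.

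The genotypes share no mouse, so fits made separately in each gave 2 readings of the housing change, 1 per genotype. In the 6 controls alone 705 of 18250 genes (3.86%) had an unadjusted p below 0.05, and in the 6 CBP-ifKOs alone 1935 (10.6%). The share in the controls was no larger than a threshold of 0.05 gives without any change. Of the 705 genes, 71.1% had the same sign in the CBP-ifKOs, and of the 1935 genes 73.75% had the same sign in the controls, where 58.9% of all genes agreed in sign. Both readings passed for 156 genes in the same direction, 79 higher and 77 lower in EE, which is 22.1% of the genes of the controls and 8.06% of those of the CBP-ifKOs. There were 13 genes that passed in opposite directions. With the even counts of the CBP-ifKOs divided by 2, the numbers were 157 in the same direction and 12 in opposite directions. The number shared in 1 direction was 243 without control EE replicate 2, and the number in opposite directions ranged from 3 to 40 over the fits that left out 1 mouse.

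Many of the housing genes also differed by genotype. Of the 32 genes, 18 had an adjusted p below 0.05 for CBP-ifKO against control in the same fit, against 17.7% of all genes. Among the 12 genes higher in EE, 7 were lower and 1 was higher in CBP-ifKOs, and among the 20 genes lower in EE, 8 were lower and 2 higher in CBP-ifKOs. Nptx2 differed between genotypes by -1.02, Penk by -0.88, Car7 by -0.73 and Lingo3 by -0.50 on the log2 scale. The highest Penk and Car7 values of the EE CBP-ifKOs, 18.6 and 16.4 CPM, were below the lowest values of the SC controls, 20.8 and 17.6 CPM. Nos1 and Mdga1 were lower in EE and lower in CBP-ifKOs, and Igfbp5 was lower in EE and higher in CBP-ifKOs.

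Gene lists were described by their counts and medians. Of all genes tested, 0.0657% were called higher and 0.11% lower, 4.69% were higher and 5.28% lower at an unadjusted p below 0.05, 49.75% had a positive change, and the counts of each list read against these shares. Calls and p-values of list members are those of edgeR, and the members that DESeq2 called in addition are named. Among 23 late response and activity genes, 3 rose past the adjusted threshold (Nptx2, Lingo3 and Penk, against 0.0657% of all genes), and 7 were higher and 2 lower at an unadjusted p below 0.05 (against 4.69% and 5.28% of all genes). The study, which used these libraries, names Nptx2, Bdnf and the enkephalin precursor for CBP-ifKOs, so the direction of these members is not independent evidence. The list was also chosen with earlier results of these data known, and Lingo3 is a member of the guidance list as well. DESeq2 also called Ptgs2 and Scg2 higher and Nptx1 lower, the first 2 of which are named after their values were seen. Nptx1, a pentraxin related to Nptx2, had a change of -0.21 ± 0.05, adjusted p = 0.12, opposite in sign to that of Nptx2. Bdnf, the neurotrophin of activity-dependent plasticity, was at 47.4, 46.1 and 54.99 CPM in the SC controls, 48.1, 64.97 and 58.5 CPM in the EE controls, 30.1, 33.8 and 30.9 CPM in the SC CBP-ifKOs and 33.6, 32.4 and 39.6 CPM in the EE CBP-ifKOs, and the groups overlapped in both genotypes (0.18 ± 0.07, adjusted p = 0.398). In the neurotrophin list of 8 genes tested, 0 passed the adjusted threshold and Bdnf alone had an unadjusted p below 0.05.

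Immediate early genes gave no housing call in edgeR. Of 21 tested, 0 passed the adjusted threshold in edgeR, 1 was higher and 2 were lower at an unadjusted p below 0.05, and 19 had a negative change, with a median of -0.13. The spread between mice was wide. Fos was at 4.83, 11.8 and 47.3 CPM in the SC controls, 7.31, 26.7 and 11.7 CPM in the EE controls, 23.7, 24.2 and 26.5 CPM in the SC CBP-ifKOs and 5.22, 21.4 and 35.6 CPM in the EE CBP-ifKOs, so the lowest and the highest value of all mice were both in SC controls (-0.37 ± 0.45, adjusted p = 0.832). Arc was at 86.6, 94.3 and 229 CPM in the SC controls, 84.5, 168 and 134 CPM in the EE controls, 179.9, 192 and 132 CPM in the SC CBP-ifKOs and 68.2, 162 and 234 CPM in the EE CBP-ifKOs (-0.10 ± 0.27, adjusted p = 0.936). Without control SC replicate 3 the signs of Fos, Arc and Egr1 turned, to 0.17, 0.15 and 0.03. The changes were -0.15 ± 0.19, adjusted p = 0.846 for Egr1, -0.19 ± 0.25, adjusted p = 0.855 for Npas4, -0.28 ± 0.07, adjusted p = 0.158 for Nr4a2 and -0.20 ± 0.05, adjusted p = 0.173 for Jun, and DESeq2 called the last 2 lower. Among 17 feedback genes of the MAP kinase pathway 0 passed, with 1 lower at an unadjusted p below 0.05.

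**Figure D4:**
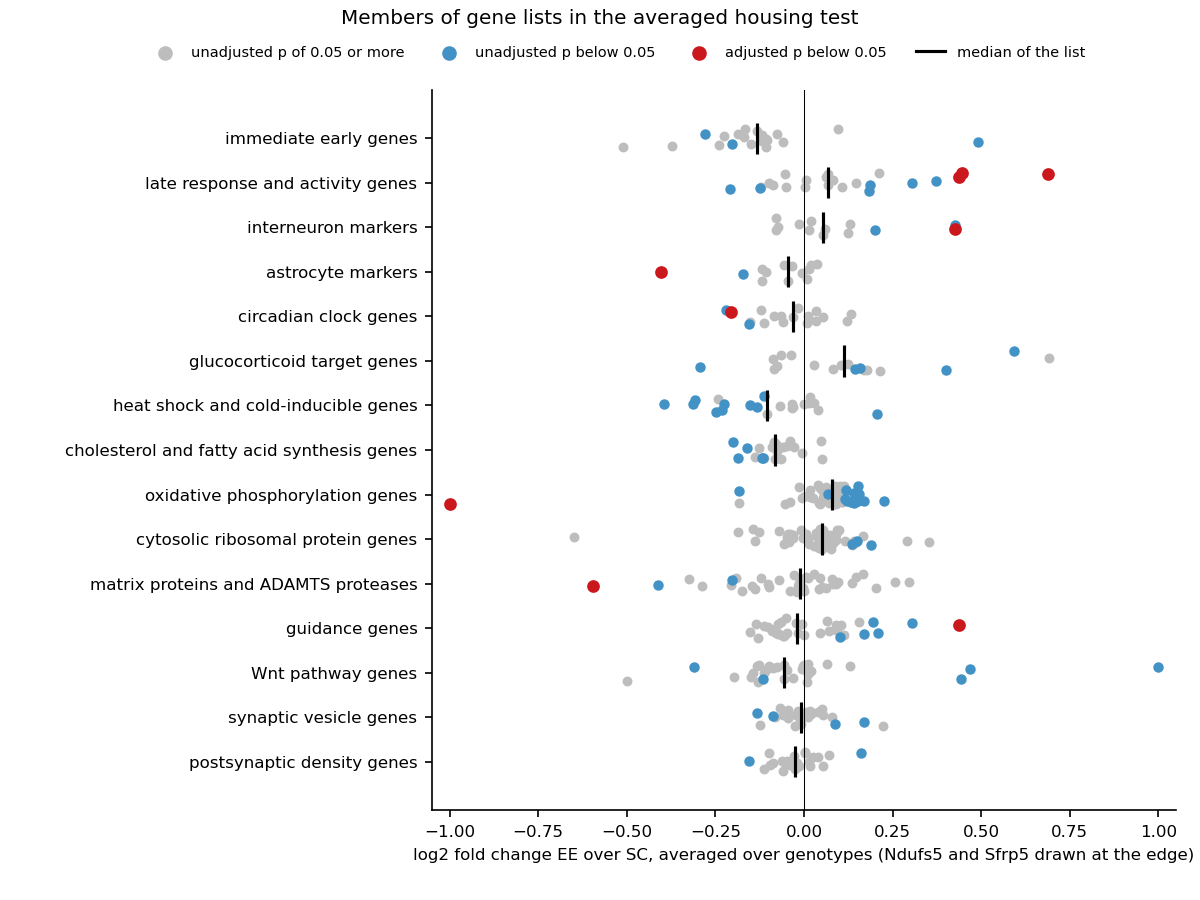
Averaged log2 fold change of EE over SC for the members of 15 gene lists, with 1 point per gene, coloured by unadjusted and adjusted p, and a bar at the median of each list. The 3 called late response genes lie between 0.44 and 0.69, heat shock and cholesterol genes lie mostly to the left of 0, and oxidative phosphorylation genes mostly just to the right. Ndufs5 and Sfrp5 lie beyond the axis and are drawn at its edge.

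Heat shock, ER chaperone and cold-inducible genes mostly had negative changes. Of 21 tested, 9 were lower (against 5.28% of all genes) and 1 was higher at an unadjusted p below 0.05, 0 passed the adjusted threshold in edgeR, and the list median was -0.10. DESeq2 called 3 members lower (Hspa5, Manf and Pdia6) and 1 higher (Cirbp). Hspa5, the ER chaperone BiP, was at 283, 359.7 and 304 CPM in the SC controls, 254, 222 and 260.3 CPM in the EE controls, 333, 316 and 306 CPM in the SC CBP-ifKOs and 311, 231 and 259.6 CPM in the EE CBP-ifKOs, with the EE controls below the SC controls and an overlap in the CBP-ifKOs (-0.31 ± 0.07, adjusted p = 0.12). The ER proteins Manf and Pdia6 had changes of -0.25 ± 0.06, adjusted p = 0.142 and -0.23 ± 0.06, adjusted p = 0.157. The cold-inducible gene Cirbp went the other way (0.21 ± 0.05, adjusted p = 0.142).

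Of 22 genes of cholesterol and fatty acid synthesis, 20 had a negative change, 5 were lower at an unadjusted p below 0.05 (against 5.28% of all genes) and 0 passed the adjusted threshold in edgeR, with a median of -0.08, while DESeq2 called 2 lower, Msmo1 among them. Msmo1, an enzyme of the late sterol pathway, had a change of -0.19 ± 0.04, adjusted p = 0.116. Fasn, the fatty acid synthase, had -0.16 ± 0.05, adjusted p = 0.235 and Hmgcs1, which makes the precursor of mevalonate, -0.12 ± 0.04, adjusted p = 0.353.

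Oxidative phosphorylation genes leaned the other way. Of 59 tested, 52 had a positive change (against 49.75% of all genes), 14 were higher (against 4.69%) and 2 lower at an unadjusted p below 0.05, and the median was 0.08, while the single member past the adjusted threshold was the decreased Ndufs5. DESeq2 called Atp5k higher. The list median was 0.05 in the controls and 0.11 in the CBP-ifKOs, and 29 of the 59 had an unadjusted p below 0.05 in the 6 CBP-ifKOs alone, against 10.6% of all genes. These 29 were counted in either direction and include the decreased Ndufs5, and the count in the 6 controls alone is not given here. Atp5k and Sdhc had changes of 0.23 ± 0.06, adjusted p = 0.146 and 0.14 ± 0.04, adjusted p = 0.21, and Atp5g1, a subunit c gene of ATP synthase, -0.18 ± 0.05, adjusted p = 0.162. Of 9 mitochondrial genome transcripts 0 passed, with 4 higher and 2 lower at an unadjusted p below 0.05 (against 4.69% and 5.28% of all genes). The lower ones were the ribosomal RNAs mt-Rnr2 (-0.14 ± 0.04, adjusted p = 0.244) and mt-Rnr1 (-0.15 ± 0.05, adjusted p = 0.283). Among 60 cytosolic ribosomal protein genes, 0 passed, 3 were higher at an unadjusted p below 0.05 and the median was 0.05.

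Among 19 circadian clock genes Tef alone passed the adjusted threshold, and Hlf, a PAR bZIP factor like Tef, and Rorb were lower at an unadjusted p below 0.05 (-0.16 ± 0.05, adjusted p = 0.309 and -0.22 ± 0.08, adjusted p = 0.343). Of 18 glucocorticoid target genes 0 passed in edgeR and 1, Klf9, was called higher by DESeq2, with 4 higher and 1 lower at an unadjusted p below 0.05 (against 4.69% and 5.28% of all genes). Klf9 and Sgk1 had changes of 0.14 ± 0.04, adjusted p = 0.146 and 0.40 ± 0.11, adjusted p = 0.182, and Pdk4 -0.29 ± 0.09, adjusted p = 0.248.

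Lists of the cell surface and matrix gave at most 1 call each in edgeR, and DESeq2 also called Col5a1, Sema7a, Wnt9a and Wnt7a. Of 40 matrix proteins and ADAMTS proteases, Adamts2 passed, and the collagen gene Col5a1 and the thrombospondin gene Thbs3 had -0.41 ± 0.09, adjusted p = 0.12 and -0.20 ± 0.06, adjusted p = 0.247. Of 36 guidance genes Lingo3 passed and 6 in all were higher at an unadjusted p below 0.05 (against 4.69% of all genes), among them Sema7a (0.21 ± 0.05, adjusted p = 0.146) and Robo3 (0.30 ± 0.09, adjusted p = 0.248), with 0 lower. In this list 15 changes were positive and 21 negative, and the median was -0.02. The Robo3 change was 0.47 ± 0.12 in the control littermates and 0.13 ± 0.12 in the CBP-ifKOs, where EE and SC mice overlapped, and its interaction had an adjusted p of 0.9998 in edgeR. Of 30 Wnt pathway genes 0 passed in edgeR, and 3 were higher and 2 lower at an unadjusted p below 0.05 (against 4.69% and 5.28% of all genes). The higher ones were Wnt9a (0.47 ± 0.12, adjusted p = 0.173), Wnt2 (0.44 ± 0.12, adjusted p = 0.191) and the low-expressed Sfrp5 (1.27 ± 0.39, adjusted p = 0.263). Wnt7a (-0.31 ± 0.08, adjusted p = 0.177) was 1 of the lower ones. The Wnt9a change was 0.64 ± 0.17 in the control littermates and 0.30 ± 0.17 in the CBP-ifKOs, where EE and SC mice overlapped, and its interaction had an adjusted p of 0.9998 in edgeR as well.

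The lists of receptor subunits, synaptic vesicle genes and postsynaptic density genes, which do not hold Doc2b or Shisa9, gave no call in edgeR, and DESeq2 called Grik3 lower. Of 17 AMPA, kainate and NMDA receptor subunits, 0 passed and 2 were lower at an unadjusted p below 0.05, the kainate receptor gene Grik3 (-0.28 ± 0.07, adjusted p = 0.177) and Grin3a (-0.12 ± 0.05, adjusted p = 0.4). Of 14 GABA-A receptor subunits, 0 passed, with Gabra5 higher (0.10 ± 0.04, adjusted p = 0.379) and Gabrg1 lower (-0.17 ± 0.06, adjusted p = 0.283) at an unadjusted p below 0.05. Of 25 synaptic vesicle genes 2 were higher and 2 lower at an unadjusted p below 0.05, and of 25 postsynaptic density genes 1 was higher and 1 lower. Among 20 genes of amino acid transport and the ATF4 response 2 were higher and 1 lower, and among 19 gene identifiers of hypoxia and glycolysis 2 were higher and 2 lower. Among 20 interferon and antigen presentation genes 1 was higher and 2 lower at that level, and none of these 5 lists had an adjusted call.

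Markers of hippocampal cell types gave 3 adjusted calls in edgeR. Man1a was the single adjusted call among 6 CA1 pyramidal markers, Npy among 13 interneuron markers and Sox9 among 13 astrocyte markers. The other astrocyte markers were not called by edgeR, and DESeq2 called 1 of them lower. This was Gja1, the gap junction protein connexin 43, with -0.17 ± 0.04, adjusted p = 0.0826 in edgeR. In this list 9 of 13 changes were negative and the list median was -0.04. The astrocyte markers summed to between 5454 and 6114 CPM in the SC controls and between 5476 and 5788 CPM in the EE controls, which overlapped. In the CBP-ifKOs they summed to between 5244 and 5444 CPM in SC and between 4958 and 5068 CPM in EE, without overlap, and 5 of the 13 had an unadjusted p below 0.05 in the 6 CBP-ifKOs alone, against 10.6% of all genes. The part of these markers in the Sox9 change was not tested. Among the interneuron markers Cort and Pvalb had 0.43 ± 0.17, adjusted p = 0.396 and 0.20 ± 0.08, adjusted p = 0.398. There were 0 adjusted calls in edgeR, and at most 1 member at an unadjusted p below 0.05, among the markers of excitatory neurons (7 tested), CA2 (8), CA3 (6), dentate granule cells (11), microglia (13), oligodendrocytes (14), oligodendrocyte precursors (8), ependyma (6), meninges (12), red blood cells (5), thalamus (9) and striatum (7). The medians of the meningeal list were -0.60 in the controls and 0.76 in the CBP-ifKOs, and its summed level in single mice ranged from 53.02 to 149 CPM in SC and from 58.45 to 209 CPM in EE. Among these lists DESeq2 called Neurod6, Bok and Plekha2 higher, 1 marker each of excitatory neurons, CA3 and granule cells. The dentate granule cell markers summed to 663.6 to 734.5 CPM in the SC CBP-ifKOs and 627.1 to 658.2 CPM in the EE CBP-ifKOs, without overlap. In the controls they overlapped, at 761.9 to 777.9 CPM in SC and 713.9 to 872.9 CPM in EE. In the 6 CBP-ifKOs alone 4 of the 11 had an unadjusted p below 0.05 (against 10.6% of all genes), Plekha2 higher and Stxbp6 lower among them. Of 14 endothelial and pericyte markers 1 was higher and 1 lower at that level. Their sum was between 491.6 and 512.5 CPM in the SC controls and between 442.8 and 489.9 CPM in the EE controls, and between 415.8 and 446 CPM in the SC CBP-ifKOs and between 461.2 and 482.9 CPM in the EE CBP-ifKOs. EE thus lay below SC in the controls and above it in the CBP-ifKOs, the difference was not tested for the list, and 1 of its members is Slco1a4. Of 18 genes of newborn neurons and proliferation 1 was higher and 3 lower at an unadjusted p below 0.05 (against 4.69% and 5.28% of all genes). The higher one was Igfbpl1 (0.75 ± 0.24, adjusted p = 0.287), at 0.415 to 1.57 CPM in single mice. Among the lower ones were the progenitor factors Sox11 (-0.22 ± 0.06, adjusted p = 0.179) and Sox4 (-0.16 ± 0.05, adjusted p = 0.312).

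Choroid plexus markers were the list furthest from 0, with a median of 1.61 and 8 of 12 higher at an unadjusted p below 0.05, and its size rested largely on 1 mouse. Ttr, the transthyretin gene that marks choroid epithelium, was at 26.1, 21.5 and 20.7 CPM in the SC controls, 1129, 19.6 and 8.81 CPM in the EE controls, 7.17, 6.02 and 7.73 CPM in the SC CBP-ifKOs and 32.3, 4.06 and 22.8 CPM in the EE CBP-ifKOs. Without control EE replicate 1 the list median was 0.15 and the Ttr change 0.54 ± 0.45 (adjusted p = 0.794). With all mice 0 of the 12 passed the adjusted threshold in edgeR, and the 4 with the smallest p had adjusted p-values between 0.41 and 0.945 without that mouse. Control EE replicates 2 and 3 summed to 231.6 and 209.1 CPM for the list, below the SC controls at 233.9 to 273.2 CPM. The CBP-ifKOs do not include control EE replicate 1. There the list summed to 207.5 to 224.7 CPM in SC and 238.5 to 269.5 CPM in EE, without overlap, and its median change was 0.63. In the separate fit of the 6 CBP-ifKOs, 5 of the 12 (Ttr, Kcne2, Slc4a5, Clic6 and Enpp2) had an unadjusted p below 0.05, against 10.6% of all genes. Of these, Clic6 and Enpp2 are named after their values were seen. In edgeR's fit of the 4 groups, Ttr, Kcne2 and Slc4a5 had an unadjusted p of 0.269, 0.13 and 0.228 in the CBP-ifKOs. Slc4a5 was at 0.0598, 0 and 0.053 CPM in the SC CBP-ifKOs. None of the 32 called genes is in this list.

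The promoters of the called genes, as far as RefSeq holds them (GRCm38.p6, 250 bases before to 50 after each start), were searched on both strands for motifs of activity, stress and clock factors. Promoters were matched for 9 of the 12 increased and 15 of the 20 decreased genes, and a gene with several promoters was counted if any held the motif. Several called genes have no entry there: Nptx2, Sox9, BC002163, St3gal1, Doc2b, Penk, Zmym1 and Shisa9. The full CRE, TGACGTCA, was in 0 of the 9 and 0 of the 15, against 3.27% of the 12734 tested genes with a promoter. The AP-1 motif TGANTCA was in Aldh1a1 alone, against 6.31%, and the EGR motif GCGTGGGCG in none, against 1.33%. The E-box CACGTG was in Lingo3, Tef and Lypd1, against 11% of all. The heat shock element was in Lingo3 alone, against 0.589%, and the SRE and the glucocorticoid element in none, against 1.59% and 0.448%. These matches describe the letters of the windows and name no factor bound there. Tef has a further promoter with an E-box, 138 bases before its start, while the other promoter of Lingo3 and that of Aldh1a1 hold none of these motifs in the 250 bases before the start. The 250 bases before the start of Tef, Lingo3 and Aldh1a1 are shown because they hold these matches, in capitals, which do not overlap each other: in Tef the E-box 127 bases before the start (chr15:81802423-81802672, plus strand), in Lingo3 a heat shock element and the E-box, 246 and 91 bases before it (chr10:80844040-80844289, minus strand), and in Aldh1a1 the AP-1 motif 57 bases before it (chr19:20492333-20492582, plus strand).
Tef: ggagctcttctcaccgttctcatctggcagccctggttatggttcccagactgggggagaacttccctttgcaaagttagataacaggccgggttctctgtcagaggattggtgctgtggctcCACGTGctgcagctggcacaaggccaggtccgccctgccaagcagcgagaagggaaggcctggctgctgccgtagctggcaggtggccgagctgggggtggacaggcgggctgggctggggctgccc
Lingo3: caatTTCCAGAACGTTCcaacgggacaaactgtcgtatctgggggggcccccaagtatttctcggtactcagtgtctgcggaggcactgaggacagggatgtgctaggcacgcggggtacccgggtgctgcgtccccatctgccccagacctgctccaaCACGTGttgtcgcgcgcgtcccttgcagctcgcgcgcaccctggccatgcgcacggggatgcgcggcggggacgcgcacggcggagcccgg
Aldh1a1: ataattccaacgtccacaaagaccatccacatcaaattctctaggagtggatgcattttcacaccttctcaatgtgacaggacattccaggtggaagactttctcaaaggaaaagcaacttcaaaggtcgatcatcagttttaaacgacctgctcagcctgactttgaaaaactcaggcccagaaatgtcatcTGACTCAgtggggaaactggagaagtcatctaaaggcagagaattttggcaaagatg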

How the data were processed

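RNA from the hippocampus of 12 mice was sequenced in single-end reads of 50 bases. The authors trimmed reads with Trim Galore 0.6.4, checked them with FastQC 0.11.8, aligned them with STAR 2.6.1 to GRCm38, kept a mapping quality above 10 and deposited raw counts per Ensembl gene, made with Rsubread. The authors' own tests used DESeq2 1.30.1. The strandedness of counting and the cause of the even counts in the CBP-ifKOs are not given in the sources used here.

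The counts were tested in edgeR 4.0.16 under R 4.3.3 (filterByExpr on the 4 groups, TMM scaling, quasi-likelihood F test, 2-sided, Benjamini-Hochberg adjustment over all 18251 genes), with genotype and housing as terms. The interaction and the changes within a genotype came from a fit of the 4 groups. The reading of each genotype against the other used separate fits of 6 mice. CPM are TMM-scaled, and a count of 3 corresponds to 0.0801 to 0.112 CPM, for counting error only. The threshold was an adjusted p of 0.05. Of 55471 gene identifiers 55144 matched a symbol in the reference annotation. The code was tested on simulated data.

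The text names the genes past the threshold (the 15 in each direction with the smallest p, where they pass 30), up to 4 members of each list by p, the 3 genes with the smallest interaction p, and Crebbp, Ep300, Arc, Fos, Npas4, Egr1 and Bdnf. Ep300, the paralog of Crebbp, had a log2 fold change of -0.0046 (adjusted p = 0.992). The comparison, its members and the 39 gene lists were chosen with earlier results of these data known. Alternatives were DESeq2 1.42.0, limma 3.58.1 (voom), DESeq2 size factors, other filters, counts of the CBP-ifKOs divided by 2, each genotype alone, a fold threshold, the replicate block and leaving out each mouse. Promoter sequences came from RefSeq and the copy of Ndufs5 from the GENCODE transcripts of GRCm38.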

Additional observations from a re-analysis of the deposited data

Results flagged for a closer look

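A pair of genes had housing changes of opposite direction in the genotypes, with no overlap between EE and SC mice in either genotype. The interaction of genotype and housing was 1.13 on the log2 scale for Myl9, a myosin light chain of smooth muscle, and 1.79 for Zp2, an egg-coat glycoprotein. Myl9 was at 14.7, 15 and 22.7 CPM in the SC controls, 14.7, 9.81 and 13.9 CPM in the EE controls, 10.9, 12.2 and 14.04 CPM in the SC CBP-ifKOs and 25.1, 15.6 and 18.9 CPM in the EE CBP-ifKOs. In the controls the gap between SC and EE was narrow, at EE replicate 1 and SC replicate 1, whose values are equal to 3 digits. Its change was -0.45 ± 0.20 in the control littermates and 0.68 ± 0.19 in the CBP-ifKOs. Zp2 was at 0.965, 0.756 and 0.762 CPM in the SC controls, 0.588, 0.463 and 0.475 CPM in the EE controls, 0.418, 0.346 and 0.371 CPM in the SC CBP-ifKOs and 0.93, 0.907 and 0.588 CPM in the EE CBP-ifKOs, below 1 CPM in every mouse. Its change was -0.70 ± 0.31 in the control littermates and 1.09 ± 0.30 in the CBP-ifKOs. In edgeR's quasi-likelihood test both had an adjusted interaction p of 0.9998, and 0.252% of all genes had housings apart in opposite directions. Beside Myl9, the meningeal and fibroblast markers had list medians of -0.60 in the controls and 0.76 in the CBP-ifKOs, and the endothelial and pericyte markers medians of -0.10 and 0.08. Their part in the Myl9 values was not tested.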

How the results depend on the processing

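The averaged test called 32 genes, and the count was 30 with 1 coefficient per group, 32 with the CBP-ifKO counts divided by 2, 33 with DESeq2 size factors and 33 with a filter of 1 CPM in 6 mice. It was 168 in DESeq2 (76 higher, 92 lower), 51 in limma voom, 349 without a filter on low counts over 35081 genes, and 6 at a fold threshold of 0.5 on the log2 scale. The cause of these differences was not tested. Leaving out 1 mouse gave 11 to 55 genes, and the 6 CBP-ifKOs alone gave 21 genes, 8 of them among the 32, while the 6 control mice alone gave 1, which was not among them. With fewer mice the fits had fewer residual degrees of freedom. The interaction had 0 calls under each alternative except the absence of a filter, which gave 110. The genes shared between the genotypes in 1 direction numbered 156, 126 in DESeq2, 30 at an unadjusted p below 0.01, and 114 to 243 without 1 mouse. With the replicate number as a block the averaged test called 48 genes, all 32 among them. Same-numbered mice of different groups deviated from their group means with correlations of -0.067 to 0.305 over 18 pairs of mice, 5 of them above 0.1, and mice with different numbers with -0.251 to 0.144. The highest value was that of a same-numbered pair of controls, but not every same-numbered pair was above 0.1 and the labels name no shared litter or day, so the numbers were not taken to pair the mice. Of 703 values of the called genes under the alternatives, 509 stayed past the threshold, 194 did not and 0 changed sign. Among the genes that were not called, in the 6 control mice alone the sign turned for Slco1a4 (-0.0214), Myl9 (-0.45), Zp2 (-0.70), Ep300 (0.0568) and Npas4 (0.18). Without 1 mouse the log2 fold change ranged from -0.0178 to 0.30 for Myl9, from -0.0789 to 0.065 for Ep300, from -0.29 to 0.15 for Arc, from -0.68 to 0.17 for Fos and from -0.29 to 0.031 for Egr1. Depth limits genes of a few CPM, such as Ndufs5, whose EE values rest on the fewest counts among the called genes.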

Other observations

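Several lists without an adjusted call held members at an unadjusted p below 0.05 in the averaged test. Bok, a BCL2-family gene among the CA3 markers, had 0.25 ± 0.05, adjusted p = 0.0837, and Plekha2, among the dentate granule cell markers, had 0.28 ± 0.06, adjusted p = 0.12. Neurod6, a transcription factor of excitatory neurons, had 0.16 ± 0.04, adjusted p = 0.179. Cx3cr1, the fractalkine receptor of microglia, had -0.11 ± 0.05, adjusted p = 0.411. Among synaptic genes Syt4 and Syn2, both of synaptic vesicles, had -0.13 ± 0.04, adjusted p = 0.287 and -0.09 ± 0.03, adjusted p = 0.313, and Shank2 and Homer3, scaffolds of the postsynaptic density, had -0.16 ± 0.06, adjusted p = 0.365 and 0.16 ± 0.06, adjusted p = 0.378. The hypoxia list had 2 members higher and 2 lower at that level. The lower ones, Pdk1 and Vegfa, had -0.13 ± 0.04, adjusted p = 0.226 and -0.17 ± 0.06, adjusted p = 0.295. The interferon-inducible proteasome subunit gene Psmb9 had -0.48 ± 0.15, adjusted p = 0.259. None of these passed the adjusted threshold of edgeR's quasi-likelihood test.

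Atp6v0c-ps2, annotated as a processed pseudogene (chr6:37806086-37806550 of GRCm38), was chosen after its values were seen. It was at 15.2 CPM in control EE replicate 1 and at 16.4 CPM in CBP-ifKO EE replicate 2, against 0.148 to 0.517 CPM in the other 10 mice. Its parent gene Atp6v0c, a subunit of the vacuolar proton pump, was at 36.9 and 41.4 CPM in the same pair of mice and between 60.3 and 73.9 CPM in the others. The averaged housing change of the copy was 4.82 on the log2 scale (adjusted p = 0.143), and 4 of the 6 EE mice did not hold the high level.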
